A study of Mus musculus with 4 samples.

Results

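Gse1, a gene on the plus strand of mouse chromosome 8, carried the longest chain of eIF4A2 eCLIP peaks in the deposited list. Its peaks were taken by position: the midpoint had to lie on the plus strand within a 370.0-kb window of chromosome 8, the mm9 span given for Gse1, and 238 of the 47777 peaks in the list did so. They made up 0.498% of the list and 6.27% of the peaks on chromosome 8. The gene itself was chosen by the number and closeness of its peaks in this list, so these are descriptions and were not tested.

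The libraries came from the mouse embryonic stem cell line J1 (strain 129S4/SvJae), which was grown feeder-free with serum and leukemia inhibitory factor (LIF). All cells were crosslinked with ultraviolet light, with no other treatment or genotype in the design. There were 2 IP libraries, made with an antibody against eIF4A2, and 2 input libraries, described as biological replicates. The measurements are 1 list for all 4 libraries, in which each peak has a position and a log2 fold of IP over input from the authors. Values per library are not in it, so the replicate error and depth are unknown and no test between IP and input could be made. Positions are in mm9 and counted from 1.

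eIF4A2 is a DEAD-box RNA helicase and a close paralog of eIF4A1, the helicase that unwinds mRNA leaders during translation initiation. In eCLIP, ultraviolet light joins a protein to the RNA it touches, and reads recovered with the antibody are set against reads of the lysate taken before recovery. Peaks in introns, where they occur, come from RNA that contains intron sequence, not from mRNA in which that intron has been removed. GSE1 is a coiled-coil protein that, in human cells, is found with the histone deacetylase and demethylase complex built around CoREST.

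Gse1 (ENSMUSG00000031822.20) is annotated in GRCm38, another build than that of the peaks, at positions 120228456 to 120581390 of chromosome 8, a length of 352.9 kb (GENCODE M21). No coordinates were converted, and no peak was placed on an exon, an intron or a UTR. Exons of its 7 annotated transcripts cover 2.93% of the gene. The transcript Gse1-206 starts at the 5′ end of the gene, with introns of 123.3 and 199.4 kb. The transcript Gse1-201, which has the most exonic bases of the 7 (7127), starts 260.0 kb further on and has 16 exons. Its first intron measures 64.4 kb, and its last 14 exons are packed into 18.8 kb, of which 33.1% is exonic. Transcripts Gse1-203 and Gse1-202 start 307.4 and 309.0 kb from the 5′ end. RNA of the first 260.0 kb is thus annotated for 1 of these 4 transcripts. The exon-rich part of the gene is shared by the other 3.

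The bases just before the starts of Gse1-203 and Gse1-202 are shown because they mark where transcripts of 16 exons begin inside the 3′ part of the gene. They are from RefSeq, build GRCm38.p6, plus strand, 60 bases each, and capitals mark CG dinucleotides. The start of Gse1-203 follows chr8:120535797-120535856, and the RefSeq start 20 bases before that of Gse1-202 follows chr8:120537349-120537408.
Gse1-203: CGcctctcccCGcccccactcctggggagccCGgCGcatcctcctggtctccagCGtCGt
Gse1-202: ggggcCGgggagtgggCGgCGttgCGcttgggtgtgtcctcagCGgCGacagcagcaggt
In the 250 bases before each start, CG occurred 15 times for Gse1-203 and 32 times for Gse1-202, against a median of 6 over the 32851 promoters in the table. At least 15 were found in 27.3% of those promoters and at least 32 in 4.58%. The entry nearest to Gse1-201, 419 bases from its start, is not shown because it lies inside an exon. CG occurred 13 times in its 250 bases. No peak was matched to these sequences, since the genome of the peaks' build was not at hand.

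The Gse1 peaks were more enriched than the typical peak of the list. Their median log2 fold was 2.24 (4.72-fold), with an interquartile range of 1.73 to 2.74, and the lowest and highest values were 1.02 and 4.41. Over the whole list the median was 1.65 (3.15-fold), with an interquartile range of 1.29 to 2.07. The lowest Gse1 value lies next to the lower end of the list, which holds no log2 fold at or below 1 (2-fold).

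Of the 238 Gse1 peaks, 155 reached a log2 fold of 2 (4-fold), or 65.1% (Wilson 95% interval 58.9 to 70.9%), against 28.3% of the list. The 8-fold level, a log2 fold of 3, was reached by 43 Gse1 peaks, or 18.1% (13.7 to 23.5%), against 4.03% of the list. Without Gse1, 26.7% of the remaining 3558 peaks of chromosome 8 reached a log2 fold of 2 and 3.32% reached 3. Such intervals hold only the counting error over peaks and treat neighbouring peaks as independent, which makes them too narrow. The difference from the list was not tested.

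**Figure D1:**
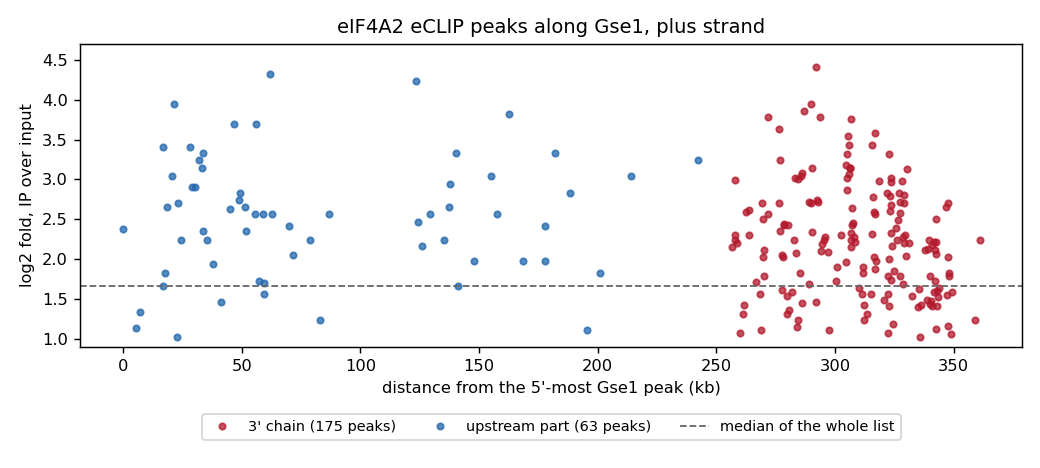
Log2 fold of IP over input (vertical axis) of the 238 plus-strand Gse1 peaks against their distance in kb from the 5′-most peak (horizontal axis). Each point is a peak; the 175 peaks of the 3′ chain crowd into the last 104.3 kb, the 63 upstream peaks spread over 256.8 kb, and most of both sets lie above the dashed line, the list's median of 1.65.

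The peaks fell into a crowded 3′ part and a sparse 5′ part. Joining plus-strand peaks no more than 10000 bases apart gave a 3′ chain of 175 peaks at 123012062 to 123116331, which held 73.5% of the Gse1 peaks in 104.3 kb. The other 63 peaks lay upstream, spread over the 256.8 kb from the first peak to the start of the chain. The chain had 16.8 peaks per 10 kb and the upstream part had 2.45, a ratio of 6.84. Peaks covered 6.4% of the bases in the chain and 0.658% of those upstream. The parts were cut by spacing itself, so all 4 Gse1 gaps above 10000 bases lie outside the chain. These contrasts are thus partly set by the cut. A split at the middle of the span, which does not use spacing, gave a density ratio of 3.15.

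Among the 17797 such chains in the list, the Gse1 chain ranked first by number of peaks. The gene was chosen for this chain, so the rank restates the choice. The next was a minus-strand chain of 94 peaks on chromosome 12 (103870647 to 103942967), and then came a plus-strand chain of 93 peaks on chromosome 8 (119781017 to 119869451). Their median log2 folds were 1.83 and 1.56, against 2.20 in the Gse1 chain. Of the 20 chains with at least 50 peaks, 3 had a median above that of the Gse1 chain, and the medians of the 20 ranged from 1.42 to 2.62.

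On the plus strand, the nearest peaks outside the span were far from its edges. The plus-strand peak nearest to the span on its 5′ side lay 102.7 kb before it, with a log2 fold of 1.82, and the nearest on its 3′ side lay 72.2 kb beyond it, with a log2 fold of 2.02. The first Gse1 peak, at 122755288 to 122755309, had a log2 fold of 2.38. The last, at 123116323 to 123116331, had one of 2.24. It and a neighbour at 123114119 to 123114157, listed at 1.24, followed a gap of 9346 bases. From first to last peak the distance was 361.0 kb, more than the annotated length of 352.9 kb, whereas up to the peak before that gap it was 349.5 kb. Whether the last 2 peaks belong to Gse1 is therefore uncertain. Since no coordinates were converted, the length does not say which end runs over. The peaks before a gap of 9737 bases near the 5′ end are uncertain for the same reason.

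Nearly all peaks of the window lay on the strand of the gene. The minus strand held 5, all of them between 123105686 and 123112967, in the 9346-base gap between the chain's main body and its last 2 peaks. Their log2 folds were 1.98, 1.02, 1.32, 1.05 and 1.46 in order of position, so 0 of them reached 2. In GRCm38, 3 minus-strand genes overlap Gse1: Gins2, which codes for a subunit of the GINS replication complex, the microRNA gene Gm22715 and the unclassified gene 1700016A09Rik. The minus-strand peaks were not assigned to any of them. Other annotated genes share the plus strand with Gse1, namely the intronic transcript Gm26971, the microRNA gene Mir7687 and the long gene Gm20388. Peaks on RNA of these genes could not be told apart from peaks on Gse1 RNA.

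In the upstream part eIF4A2 peaks were sparse, and their listed folds were on the whole as high as in the chain or higher. Their median log2 fold was 2.56, with an interquartile range of 1.98 to 3.05, and the chain's was 2.20, with an interquartile range of 1.63 to 2.70. At least 2 on the log2 scale was listed for 109 of the 175 chain peaks, or 62.3% (54.9 to 69.1%), and for 46 of the 63 upstream peaks, or 73.0% (61.0 to 82.4%). At least 3 was listed for 26 chain peaks, or 14.9% (10.4 to 20.9%), and for 17 upstream peaks, or 27.0% (17.6 to 39.0%). The ranges of the 2 parts overlapped almost completely, at 1.02 to 4.41 in the chain and 1.02 to 4.33 upstream. The chain's median was lower by 0.36 on the log2 scale, a difference that was not tested and that turned round in a subset described below.

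Upstream peaks were also narrower and rested on simpler ratios. Median width was 36 bases in the chain and 25 bases upstream, and the widest peak measured 117 bases in the chain and 53 bases upstream. All Gse1 folds, once a constant of 0.24 on the log2 scale, taken from the commonest values in the list, was subtracted, were ratios of whole numbers (relative tolerance 4e-07). The denominator of the reduced ratio had a median of 7 in the chain and 2 upstream. It was 1 for 21 chain peaks (12%) and for 28 upstream peaks (44.4%), against 27.8% of the list. A reduced ratio gives neither the read counts nor their error, and the constant is fixed only up to a whole factor. Among peaks with a denominator of at least 5, the median log2 fold was 2.10 for 122 chain peaks and 1.34 for 7 upstream peaks, the opposite order. Among those below 5 it was 2.33 for 53 chain peaks and 2.60 for 56 upstream peaks. The denominator and the log2 fold were related in Gse1 (Spearman's rho = -0.37 across 238 peaks) as in the list (-0.29), so a limit on the denominator acts on the fold as well. The part of the denominators in the difference between chain and upstream was not tested.

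**Figure D2:**
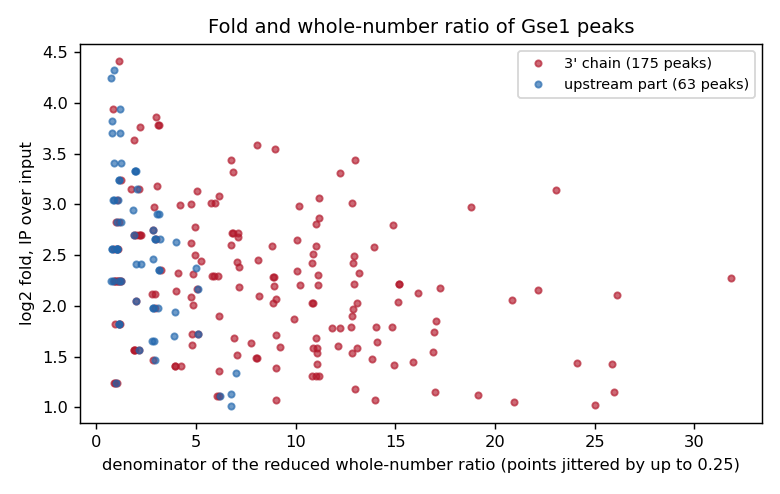
Log2 fold of IP over input (vertical axis) of each Gse1 peak against the denominator of its reduced whole-number ratio (horizontal axis, points jittered). Upstream peaks stay at denominators of 7 or less, whereas chain peaks reach 32; the highest folds of both parts sit at low denominators.

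The upstream peaks formed 2 looser groups and 2 isolated peaks. At a joining distance of 10000 bases, 41 peaks at 122755288 to 122842157 formed the first group (median log2 fold 2.56), and 20 peaks at 122878664 to 122956256 formed the second (median 2.51). Between these groups lay the longest empty stretch of the gene, 36.5 kb at 122842158 to 122878663. One isolated peak covered 122969417 to 122969432 (log2 fold 3.05), and the other covered 122997479 to 122997486 (log2 fold 3.24). Empty stretches of 13.2, 28 and 14.6 kb flanked them, and the last of these ended at the start of the chain. The next longest, 9.74 kb, lay 7.0 kb into the signal.

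Spacing differed accordingly. The median gap between neighbouring peaks was 257.5 bases in the chain (interquartile range 103 to 618) and 1940 bases upstream (892 to 5007). Gaps of at most 1000 bases made up 146 of 174 in the chain and 17 of 62 upstream. Gaps of at most 200 bases numbered 73 in the chain and 6 upstream, and 3 pairs of chain peaks touched end to end. Of the upstream peaks, 33 had no other plus-strand peak within 1000 bases, as had 10 of the chain peaks. Close spacing was not particular to the Gse1 chain. In the chain of 94 peaks on chromosome 12 the median gap was 257 bases (interquartile range 93 to 697). In the chain of 93 peaks on chromosome 8 it was 468 bases (186 to 1080).

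**Figure D3:**
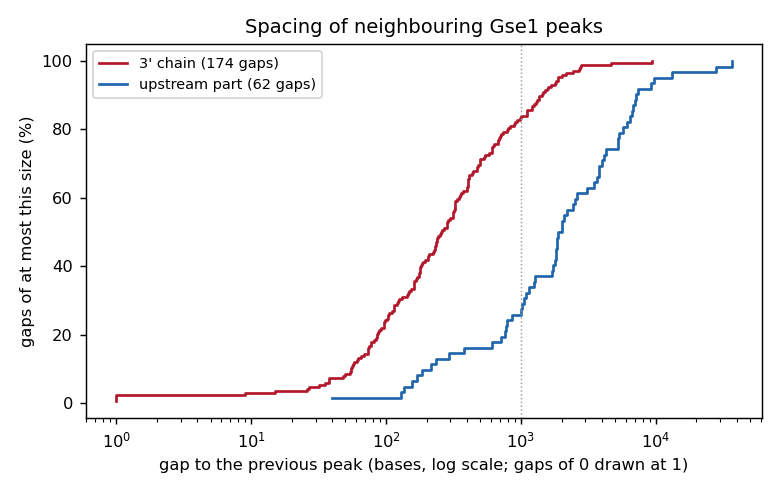
Cumulative share of gaps (vertical axis, percent) up to a given size in bases (horizontal axis, log scale) between neighbouring Gse1 peaks, for the 174 gaps of the 3′ chain and the 62 gaps of the upstream part. The dotted line marks 1000 bases. The chain's curve lies to the left: its median gap was 257.5 bases, against 1940 bases upstream.

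The 10 most enriched Gse1 peaks came from both parts, 6 from the chain and 4 from upstream. The highest log2 fold, 4.41 (21.3-fold), belonged to a chain peak of 5 bases at 123047350 to 123047354. An upstream peak at 122817174 to 122817225 followed with 4.33, and another at 122878664 to 122878694 with 4.24. The one at 4.24 is the first peak after the longest empty stretch. The value of 3.94 was listed both for a chain peak at 123045197 to 123045207 and for an upstream peak at 122776781 to 122776803. The remaining upstream peak of the 10, at 122917942 to 122917963, had a log2 fold of 3.82. The remaining chain peaks had log2 folds of 3.86 at 123042409 to 123042433, 3.78 at 123027096 to 123027146 and at 123048995 to 123049018, and 3.76 at 123061972 to 123062021. These 10 peaks were 5 to 52 bases wide, and 6 of them had a denominator of 1.

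Along the chain, the bin medians of enrichment were higher up to position 123090000 and lower in the last bins at the 3′ end. In bins of 10 kb from 123010000 on, the number of peaks was 11, 10, 20, 18, 9, 24, 29, 18, 25, 9 and 2. The median log2 fold of these bins was 2.24, 2.07, 2.15, 2.72, 2.09, 2.37, 2.31, 2.35, 1.62, 1.78 and 1.74. The first 8 bins thus had medians above 2, and the last 3, from 123090000 on, had medians near the list's 1.65. In the bins from 123090000 and 123100000, 9 of 25 and 3 of 9 peaks reached a log2 fold of 2, and 0 reached 3. In the bin from 123040000, 14 of 18 peaks reached 2 and 7 reached 3. Spearman's rho of position and log2 fold was -0.21 across the 175 chain peaks and 0.02 across the 63 upstream peaks, given as descriptions, since peaks share libraries and neighbours. The median denominators of the 11 bins were 6, 4, 6, 3, 6, 11, 7, 9.5, 13, 12 and 1 in the same order. Of the last 3 bins, 2 thus had denominators above the chain's median of 7, and the last, with 2 peaks, had one of 1.

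**Figure D4:**
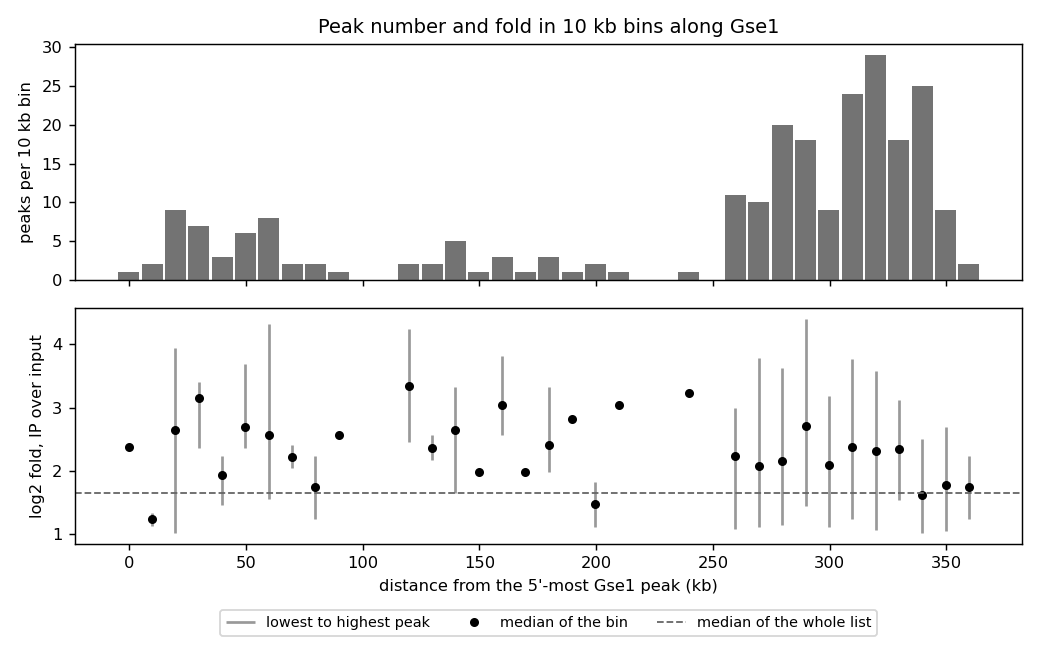
Number of Gse1 peaks (upper panel) and their median log2 fold with the lowest and highest peak (lower panel) in 37 bins of 10 kb, against distance in kb from the 5′-most peak. The fullest bin holds 29 peaks, 5 bins hold none, and the bin medians drop towards the dashed list median of 1.65 at the 3′ end.

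Within the chain, peaks gathered into 12 stretches, each a run of 5 or more peaks no further than 1000 bases apart, which held 146 of its 175 peaks. The upstream part had no such stretch. The most enriched was at 123059819 to 123063758, where 19 peaks covered 25.9% of 3.94 kb. Their log2 folds ran from 1.97 to 3.76 with a median of 2.87, 18 of them reached 2 and 9 reached 3. The median denominator was 12 in this stretch, against 7 in the whole chain and 2 upstream.

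The stretch with the most peaks, 34 at 123077232 to 123086483, had a median log2 fold of 2.32 and a range of 1.07 to 3.32. It was preceded by 10 peaks at 123070456 to 123072581 with a median of 2.44. The 2 stretches nearest the 3′ end had lower folds. Of these, the one at 123093190 to 123099183 had 21 peaks with a median of 1.73 and none above 2.51, and the one at 123101954 to 123104772 had 9 peaks with a median of 1.78 and none above 2.70. In these 2 stretches the median denominators were 13 and 12.

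The 5′ part of the chain held smaller stretches. The cut itself places a gap above 10000 bases before the chain, here one of 14.6 kb. The stretches began with 5 peaks at 123012062 to 123014082, all above a log2 fold of 2 (2.15 to 2.99, median 2.24). Then came 7 peaks at 123023786 to 123025475 (median 2.03), 9 at 123031798 to 123033833 (2.42), 12 at 123037137 to 123042433 (2.15), 6 at 123044316 to 123045733 (2.71) and 9 at 123047235 to 123051019 (2.28). The exception to the high folds of the chain's middle was a stretch of 5 peaks at 123066743 to 123067749, with a median of 1.56, none above 1.90 and a median denominator of 2.

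**Figure D5:**
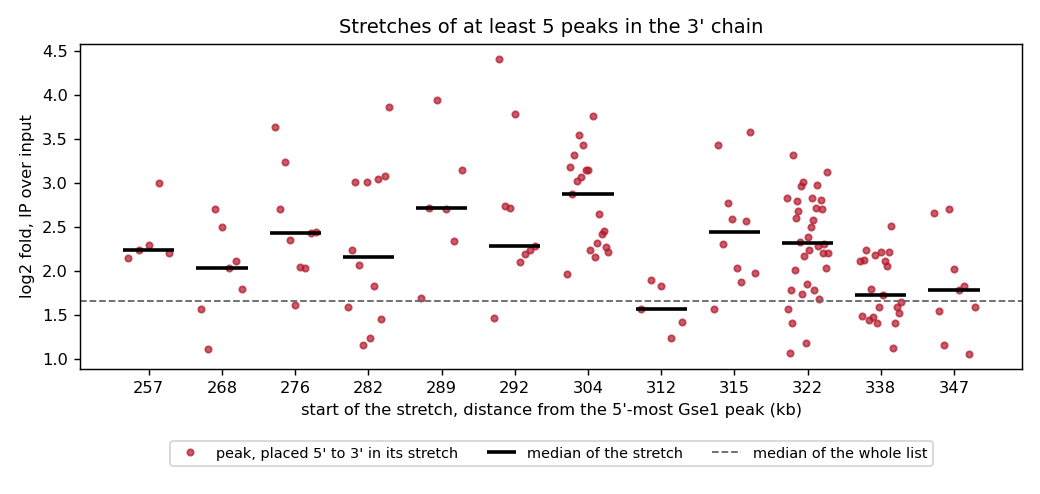
Log2 fold of IP over input (vertical axis) of each peak in the 12 stretches of the 3′ chain, ordered 5′ to 3′ and labelled by their distance in kb from the 5′-most Gse1 peak. Black bars are the stretch medians, which reach 2.87 in the stretch of 19 peaks and fall to 1.73 and 1.78 in the last 2 stretches.

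By length alone, the lower folds at the 3′ end and the exon-rich part can be set side by side but not superimposed. In GRCm38 the last 14 exons of Gse1-201 take up the final 18.8 kb of the gene. In mm9 the last 2 stretches of the chain took up the 11.6 kb before the 9346-base gap. Whether the peaks of these stretches lie on exons, including the last exon of 2922 bases, or in the introns between them was not analysed here. The same holds for the upstream peaks and the long first introns.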

How the data were processed

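eCLIP libraries from J1 cells (2 IP, 2 input) were compared through 1 deposited peak list. The submitters' processing notes name the build mm9, STAR 2.6.1b and cutadapt 1.18. No source used here gives the peak caller, a significance filter or how replicates were combined. The log2 fold of IP over input was calculated by the authors; its scale was read from the values, as the list has no header. The members and lists were chosen with earlier results of these data known.

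Peaks were sorted by strand and position and joined into chains at 10000 bases and stretches at 1000 bases. Named features were the 10 highest peaks, the first and last peak, the 5 longest gaps, stretches of at least 5 peaks and the 2 next chains; bins of 10 kb were added after the data were seen. Fold ratios were reduced with denominators up to 300 (relative tolerance 4e-07). No test was run, since the list has no values or depth per library. Procedures were tested on simulated data. Python 3.11.15, numpy 2.4.6, pandas 2.3.3, scipy 1.17.1 and matplotlib 3.10.9 were used. Alternatives were a minimum width of 20 bases, merging within 50 bases, higher fold limits, joining at 5000 or 20000 bases and a split at the middle of the span.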

Additional observations from a re-analysis of the deposited data

How the results depend on the processing

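Limits on the fold can only lower the peak numbers, so the direction of this change was set beforehand. A log2 fold of at least 2 left 155 Gse1 peaks and 108 in the longest chain, and a log2 fold of at least 3 left 43 and 14. Splitting the gene at the middle of the span gave a density ratio of 3.15 between the 3′ and 5′ sides, against 6.84. The chain's median log2 fold minus that of the upstream part was -0.36 and stayed between -0.43 and -0.36 under the 5 other listed settings. Among peaks with a reduced denominator of at least 5, a setting chosen after seeing the data, it turned to 0.76; 7 upstream peaks were left, and this limit acts on the fold itself. The Gse1 chain ranked first by number of peaks under each of the 5 settings run for it. The gene was chosen for its chain in these same peaks, so this rank restates the choice. The rank was not run at a log2 fold of at least 3. No paired analysis was possible because the list does not separate the libraries, which also kept any replicate from being left out. With the depth unknown, its limits were not measured.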

Other observations

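The list numbers its peaks chromosome by chromosome, without saying what sets the order within a chromosome. Of the first 100 of the 3796 peaks on chromosome 8, 10 lay in Gse1, all of them in the 3′ chain. Gse1 held 6.27% of all peaks on that chromosome, and the chain held 73.5% of the Gse1 peaks. Out of 3796 places in this order, the median place was 492 for the chain and 1219 for the upstream peaks.

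Fold values recurred among the Gse1 peaks. A log2 fold of 2.24, a reduced ratio of 4 to 1, was listed for 11 peaks, 7 in the chain and 4 upstream. A log2 fold of 2.56, a ratio of 5 to 1, was listed for 8 peaks, 2 in the chain and 6 upstream. The 5 commonest values of the list were found at 33 Gse1 peaks (13.9%), against 27.4% of the list.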
